A study of Mus musculus with 4 samples.

Results

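Liver of aged diabetic mice given astragalus polysaccharide together with metformin was compared with liver of untreated aged diabetic mice, gene by gene. Each group was 1 microarray of whole-liver RNA from male mice, and the comparison therefore rests on 1 array a side. The untreated array is called diabetic here and comes from a type 2 aging diabetes model without either agent. The treated array, called combination, comes from the same model with both agents. The other arrays of the study were a naturally aged control without diabetes and the diabetes model given metformin alone. Every sample title carries 60 d, without a starting point for that time, and the doses, the strain, the way diabetes was brought about and any pooling of mice are unknown here. Astragalus polysaccharide alone was not analysed here, so its share of any difference cannot be told apart from that of metformin by these arrays. Of 56605 probes, 27893 were well above background on both the combination and the diabetic array. The 19063 of these that could be named measured 14108 genes of 23462 with a named probe on the array. A gene's difference is the log2 level on the combination array minus that on the diabetic array, set so that the median gene has a difference of 0. Levels are given in log2 over the 75th percentile of the diabetic array, with the other arrays aligned to it on their median gene, and are compared within a gene only, because probes differ in brightness.

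Metformin is a biguanide that lowers blood glucose, largely by reducing glucose output of the liver, and astragalus polysaccharide is the carbohydrate fraction of the root of Astragalus. The liver stores and releases glucose, makes fatty acids, cholesterol and bile acids, secretes most plasma proteins and conjugates drugs and steroids. It relies on chaperones of the endoplasmic reticulum (ER) to fold secreted proteins and on heat shock proteins to fold cytosolic ones. Many of its P450, sulfotransferase and flavin monooxygenase genes differ between male and female mice under the control of growth hormone.

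No test of a difference between groups was possible with 1 array per group, and no gene below has a replicate check. Probes printed in several spots gave a technical SD of 0.089 in log2 for a difference between both arrays, which leaves out the variation between mice, RNA preparations and hybridizations. All arrays were on the same slide and shared a scan time. Outlier spots, 4.66% on the diabetic and 2.18% on the combination array, were left out. Hepatocyte genes bore out the labelled tissue by their brightness. Of 20 listed markers 16 were measured on both arrays, with median levels of 4.74 on the diabetic and 4.83 on the combination array. None was as much as 2-fold apart and their median difference was -0.01, which compares the arrays and does not bear on the tissue. In whole tissue, fewer cells of a type and less RNA per cell cannot be told apart.

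On the combination array 1385 of 14108 genes (9.82%) were 2-fold or more from the diabetic array: 495 were higher (3.51%) and 890 were lower (6.31%). The middle 50% of genes lay between -0.33 and 0.27. Lower genes made up 64.3% of those past 2-fold. That share was 80.7% without centring on the median gene, 77.7% with quantile normalization and 50.8% with dim probes kept. Most genes past 2-fold, 1130 of 1385, rested on a single probe. A further 147 genes were seen on the combination array only with a bound of at least 2-fold, and 192 on the diabetic array only.

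**Figure D1:**
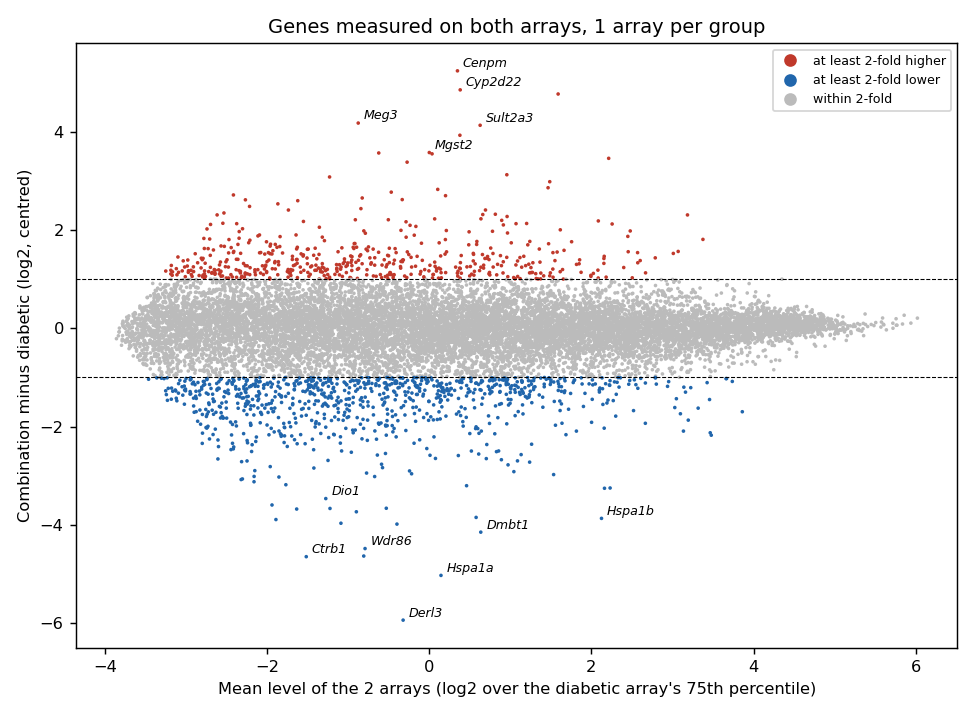
Difference of each of 14108 genes (vertical axis, log2, combination minus diabetic, 0 at the median gene) against its mean level on both arrays (horizontal axis, log2 over the diabetic array's 75th percentile). Points past the dashed lines at 2-fold are red (495 higher) or blue (890 lower), and the labelled genes are among the furthest apart.

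Where the other arrays stood was described for genes past 2-fold that were above background on all 4. Of 401 such higher genes, 315 (78.6%) had their lowest level on the diabetic array and 217 (54.1%) their highest on the combination array. Of 726 such lower genes, 480 (66.1%) were highest on the diabetic array and 523 (72.0%) were lowest on the combination array. On the lower side 150 genes had a combination level at least 2-fold below every other array, and on the higher side 32 had one at least 2-fold above every other array. The diabetic array stood apart by 2-fold from the other 3 for 94 of the higher and 106 of the lower genes. All of these counts use the pair of arrays that chose the genes, so they describe the pattern and add no support to it.

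The genes furthest apart were described first by role. Among detoxification genes, Sult2a2, a sulfotransferase that conjugates hydroxysteroids and bile acids, stood at 0.49 on the diabetic, 3.69 on the metformin array and 3.94 on the combination array and was below background on the control array. Its relatives Sult2a3, Sult2a4 and Sult2a5 differed by 4.13, 3.12 and 3.93. These Sult2a genes are close copies whose probes can share signal, so they are not separate observations. Sult3a1, another female-biased sulfotransferase gene, was below background on the control and diabetic arrays, at 2.08 on the metformin array and at 0.60 on the combination array, which makes it at least 22.3-fold higher than on the diabetic array. Mgst2, a microsomal glutathione transferase, stood at -1.79 on the diabetic, 1.89 on the metformin array and 1.79 on the combination array and was below background on the control array. Thus Sult2a2, Sult2a3, Sult2a4, Sult2a5 and Mgst2 were all below background on the control array and lower on the diabetic than on the combination array. Sult2a7 and Sult2a8, measured too, were above background on the control array and differed by 0.46 and 0.05. Cyp2d22, a P450 gene, showed another order: it was at 2.18 on the control, -2.04 on the diabetic and 2.81 on the combination array, a 28.8-fold difference between the latter, and its spot on the metformin array was an outlier.

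Other leading higher genes had no common role. Cenpm, a centromere protein gene, stood at -0.15 on the control, -2.27 on the diabetic, 3.01 on the metformin array and 2.97 on the combination array. The imprinted noncoding transcript Meg3 was at -0.60, -2.96, 2.57 and 1.21 in the same order. B4galnt1, a ganglioside synthase gene, stood at 1.07 on the control, -2.40 on the diabetic, -0.17 on the metformin array and 1.16 on the combination array, and Lypd6b at 0.82, -1.74, 0.25 and 1.81. For these 4 genes the diabetic array was the lowest. Psmc3ip, a recombination cofactor gene, instead stood apart on the combination array, with levels of -1.96 on the control, -1.96 on the diabetic, -0.86 on the metformin array and 1.42 on the combination array, and its 2 probes gave 3.27 and 3.49. Among genes below background on the diabetic array only, Tob2, an antiproliferative regulator, had the largest bound, at least 184-fold higher, followed by Smad9 (at least 23.5-fold) and Zyg11b (at least 21.5-fold). The single Tob2 probe read 3.53 on the control, 3.47 on the metformin array and 3.64 on the combination array, so the diabetic array alone stood apart there, at -6.04. The Smad9 and Zyg11b bounds also rest on 1 probe each. Whether a failed spot on the diabetic array gave any of these readings was not tested.

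The lowest genes included Derl3 and the inducible HSP70 genes, described with their families below, and digestive enzyme genes of the pancreas. Ctrb1, which encodes chymotrypsinogen, stood at 4.38 on the control, 0.81 on the diabetic, 2.65 on the metformin array and -3.84 on the combination array. Dio1, the deiodinase that activates thyroid hormone in liver, was at 1.14, 0.46, -1.61 and -3.01 in the same order, and its 3 probes gave differences between -5.05 and -1.48. Rtp3, a liver-expressed receptor transporter gene, was at 0.07, 0.90, -0.18 and -3.07. Dmbt1, a mucosal scavenger receptor, was at 2.91, 2.71, 1.51 and -1.44, and Fam47e at 2.33, 1.30, 0.58 and -2.36. For these 5 genes the combination array was the lowest of the 4. Spsb4 and Insc differed by -3.85 and -3.73, also with the lowest level on the combination array among the arrays that measured them. Wdr86 (-4.48) and Lag3 (-3.67) were highest on the diabetic array, at 1.45 and 0.61, and low on the control array, where Wdr86 was below background and Lag3 was at -2.40.

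**Figure D2:**
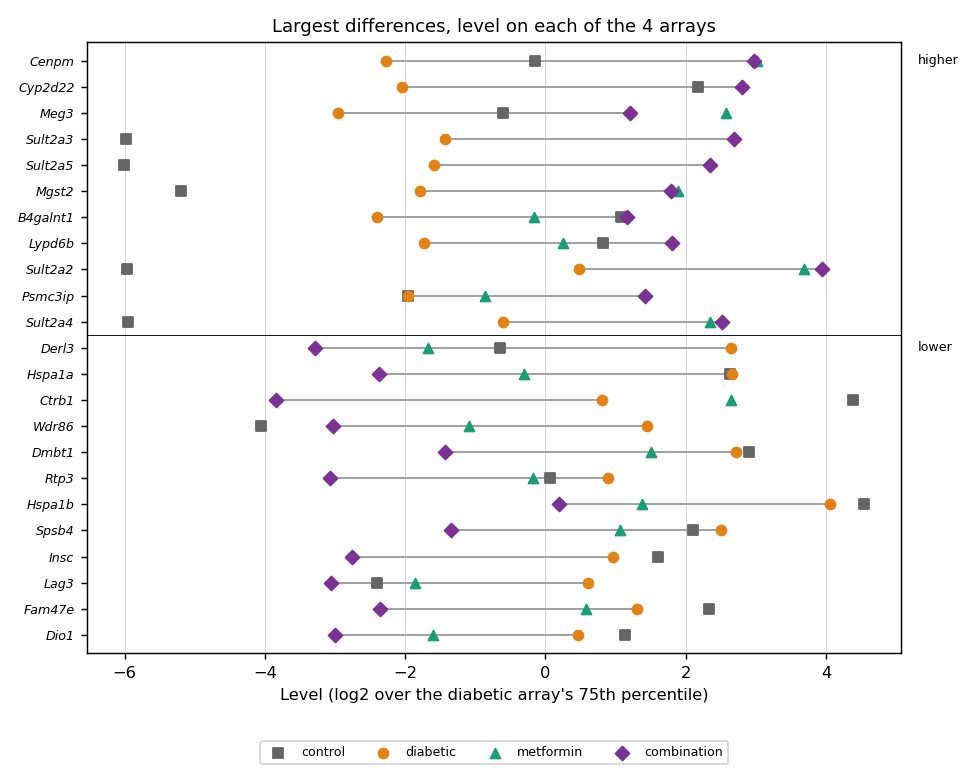
Level of the highest (upper block) and lowest (lower block) named genes on each array (horizontal axis, log2 over the diabetic array's 75th percentile), with a line from the diabetic to the combination array. Symbols near -5 to -6 on the control array are below background, a missing symbol is an outlier spot, and levels are to be compared within a gene.

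Gene lists of pathways and cell types, 53 in all, were then read against the whole array. Of the 52 with at least 5 measured members, 10 had a median above the interquartile range of all genes, 7 a median below it and 35 one within it. In the counts that follow, the background is 3.51% of all genes higher and 6.31% lower by 2-fold or more, with a median of 0.

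**Figure D3:**
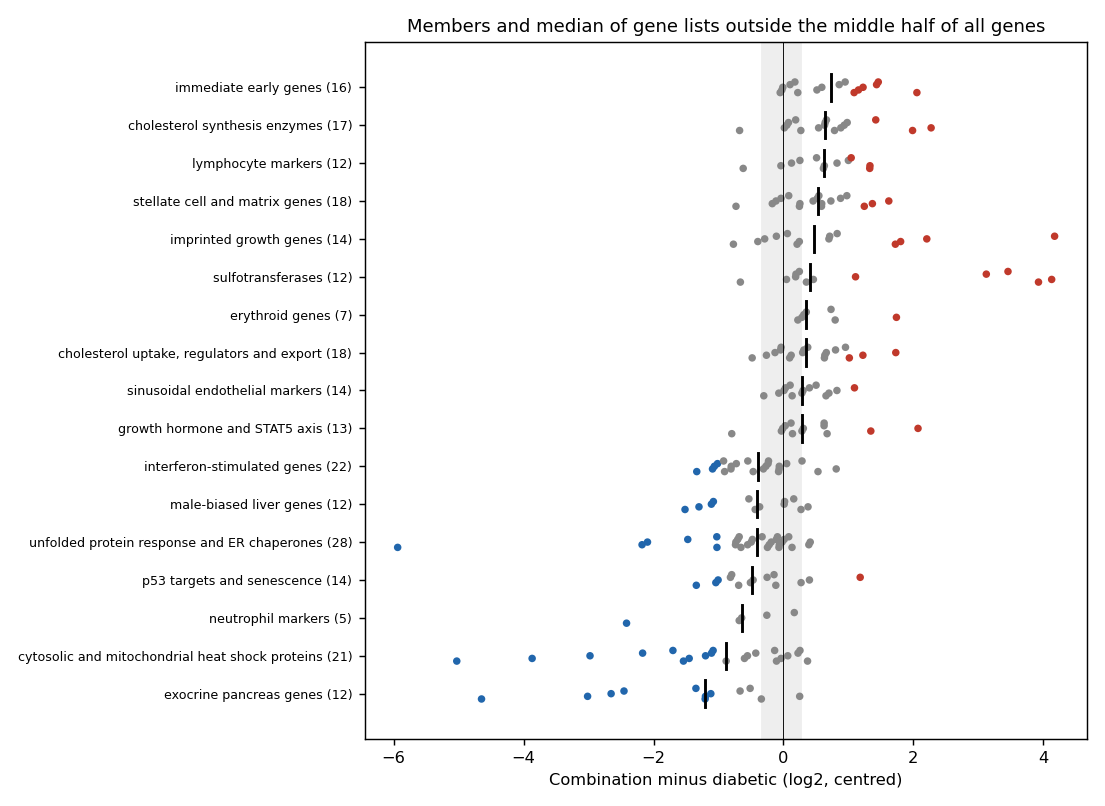
Difference of each measured member (points, log2, combination minus diabetic) of the 17 lists whose median (black bar) lay outside the interquartile range of all genes (grey band), with the number of measured members in parentheses. Red and blue points are at least 2-fold higher or lower; exocrine pancreas genes have the lowest median (-1.20) and immediate early genes the highest (0.72).

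Heat shock genes were lower on the combination array as a group. Of 24 listed, 21 were measured, 10 were at least 2-fold lower and none was higher by as much, with a median of -0.88. The largest differences were in the inducible members. Hspa1a, which encodes the stress-inducible HSP70, stood at 2.63 on the control, 2.66 on the diabetic, -0.30 on the metformin array and -2.37 on the combination array, a difference of 32.6-fold. Hspa1b, its close copy, was at 4.55, 4.06, 1.37 and 0.19, a difference of 14.6-fold. For both genes the control and diabetic arrays lay high and near each other, the metformin array lower and the combination array lowest. The promoters of the pair are shown because they are nearly identical, with 3 of 250 bases different (98.8% identity), so these genes are not independent witnesses, and their transcripts can share probe signal. Both sequences are the 250 bases before the start site from RefSeq (GRCm38.p6, minus strand), with the bases that differ in capitals. They lie at chr17:34972157-34972406 for Hspa1a and chr17:34959239-34959488 for Hspa1b.
Hspa1a: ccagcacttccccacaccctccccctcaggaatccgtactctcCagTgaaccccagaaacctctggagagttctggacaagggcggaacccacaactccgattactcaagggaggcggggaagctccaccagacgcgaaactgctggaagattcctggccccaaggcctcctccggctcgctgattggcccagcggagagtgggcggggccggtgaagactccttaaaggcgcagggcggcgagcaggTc
Hspa1b: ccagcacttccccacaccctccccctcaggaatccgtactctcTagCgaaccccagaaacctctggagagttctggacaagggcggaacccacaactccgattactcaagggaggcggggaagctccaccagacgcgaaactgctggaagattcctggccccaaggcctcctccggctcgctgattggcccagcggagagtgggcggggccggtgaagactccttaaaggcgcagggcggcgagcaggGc

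Hsph1, an HSP110 nucleotide exchange factor, stood at 3.02 on the control, 3.02 on the diabetic, -0.52 on the metformin array and 0.05 on the combination array. Chordc1, an HSP90 cochaperone, was at -0.08, -0.09, -2.29 and -2.25. Dnajb1, the HSP40 partner of HSP70, was at 4.90, 4.18, 3.20 and 2.73, and the cochaperone gene Stip1 at 3.99, 3.74, 2.80 and 2.54. In each of these the control and diabetic levels were the higher ones and the metformin and combination levels the lower ones, without overlap. Hspa4l (-1.70), Dnaja1 (-1.54), Bag3 (-1.11) and Hsp90aa1 (-1.08) were the other members at least 2-fold lower. The constitutive and mitochondrial members lay nearer 0: Hspa8 differed by -0.55, Hsp90ab1 by -0.14, and the mitochondrial chaperonin genes Hspd1 and Hspe1 by 0.25 and 0.07. Hsf1, the transcription factor of the heat shock response, differed by -0.11. The list median on the metformin array against the same diabetic array was -0.90, and that of the diabetic against the control array was -0.26; the former shares the diabetic array with the present comparison.

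Genes of the unfolded protein response and ER chaperones were lower to a smaller extent. Of 30 listed, 28 were measured, 6 were at least 2-fold lower and none was higher by as much, 23 lay below 0 and the median was -0.40. Derl3, which helps to move misfolded proteins out of the ER, stood at -0.65 on the control, 2.65 on the diabetic, -1.68 on the metformin array and -3.29 on the combination array, a difference of 61.3-fold between the diabetic and combination arrays on 1 probe. The diabetic array was the highest for Derl3. The ER chaperone cofactor gene Sdf2l1 was at 3.70, 4.18, 2.59 and 2.09 in the same order, and Creld2, an ER stress-inducible secretory protein gene, at 4.45, 4.57, 3.24 and 2.39. Ddit3, which encodes the stress transcription factor CHOP, was at 1.97, 3.01, 2.66 and 1.53. The protein disulfide isomerase gene Pdia4 and the ER ubiquitin ligase gene Syvn1 differed by -1.03 and -1.02. Hspa5, which encodes the main ER chaperone BiP, differed by -0.73, the transcription factor genes Xbp1 and Atf4 by -0.19 and 0.01, and the stress sensor genes Ern1 and Eif2ak3 by 0.41 and 0.13.

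Promoters of this family were searched for the ER stress response element, written here as CCAAT and CCACG with 9 bases of any kind between them, on both strands of the 300 bases from 250 before to 50 after the start site. It was present in 37 of 27025 genes with a RefSeq promoter (0.137%) and in 8 of the 25 measured family members with one. The median difference was -0.71 for these 8 and -0.19 for the others. The windows below show 4 low members and 3 members near 0 that hold the element too, so that both outcomes can be seen beside it. Each runs 5′ to 3′ on the gene's strand, from RefSeq (GRCm38.p6), with the element, in either orientation, in capitals. Derl3 (plus strand, chr10:75893222-75893280) has it starting 156 bases upstream, Creld2 (plus strand, chr15:88819500-88819558) 126, Syvn1 (plus strand, chr19:6046512-6046570) 44 and Hspa5 (plus strand, chr2:34772005-34772063) 65 bases upstream. Calr (minus strand, chr8:84847055-84847113), Canx (minus strand, chr11:50325780-50325838) and Hsp90b1 (minus strand, chr10:86705618-86705676) have it starting 162, 145 and 212 bases upstream.
Derl3: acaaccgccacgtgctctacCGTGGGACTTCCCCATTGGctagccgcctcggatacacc
Creld2: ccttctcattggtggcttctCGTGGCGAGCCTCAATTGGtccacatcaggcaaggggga
Syvn1: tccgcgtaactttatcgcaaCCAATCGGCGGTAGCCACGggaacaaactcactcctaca
Hspa5: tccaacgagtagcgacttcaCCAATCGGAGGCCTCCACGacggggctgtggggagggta
Calr: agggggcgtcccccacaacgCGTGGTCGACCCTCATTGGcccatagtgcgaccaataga
Canx: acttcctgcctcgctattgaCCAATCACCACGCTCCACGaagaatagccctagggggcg
Hsp90b1: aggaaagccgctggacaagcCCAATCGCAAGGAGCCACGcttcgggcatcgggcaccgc
The first 4 differed by -5.94, -2.18, -1.02 and -0.73. Calr, Canx and Hsp90b1, all ER chaperone genes, differed by -0.22, -0.11 and -0.02. A match to these letters describes the sequence and says nothing of whether the factor bound there.

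**Figure D4:**
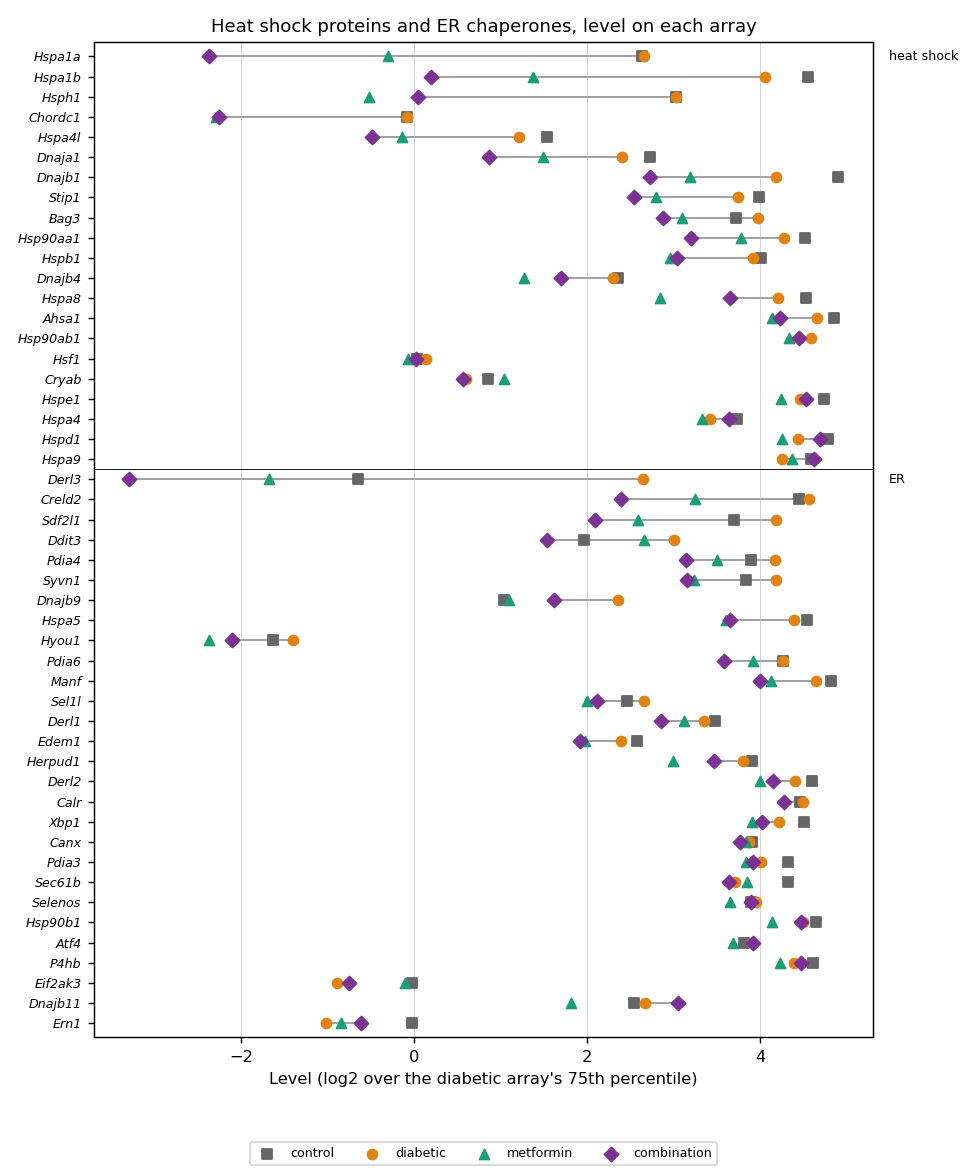
Level of each measured heat shock gene (upper block) and ER chaperone or unfolded protein response gene (lower block) on each array (horizontal axis, log2 over the diabetic array's 75th percentile), with a line from diabetic to combination. In the upper rows of each block the combination symbol lies left of the diabetic one, with Derl3 (-5.94) and Hspa1a (-5.03) the furthest apart.

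Cholesterol synthesis enzymes were higher. Of 20 listed, 17 were measured, 16 lay above 0, 3 were at least 2-fold higher and none was lower by as much, with a median of 0.64. Sqle, the squalene epoxidase, stood at 0.72 on the control, -0.18 on the diabetic, 2.58 on the metformin array and 2.10 on the combination array. Cyp51, the lanosterol demethylase, was at 0.18, -0.78, 1.67 and 1.21 in the same order. For both the diabetic array was the lowest and both treated arrays lay above the control array. Genes that govern uptake and regulation were higher in part: of 18 measured, 3 were at least 2-fold higher and none lower, with a median of 0.34, or 0.15 without centring. Insig1, which retains the sterol sensor in the ER, differed by 1.22 and Srebf2, the transcription factor of the pathway, by 1.01. Bile acid synthesis genes, with 16 of 16 measured, had no member past 2-fold and a median of -0.03.

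Fatty acid and glucose gene lists had medians near 0, but a few single members were far apart. In fatty acid synthesis, 2 of 12 measured genes were lower by 2-fold or more and none higher, with a median of 0.03. That median was -0.17 without centring and -0.10 over 15 genes with outlier spots kept. No difference could be taken for the listed genes Fasn, Scd1 and Me1. The lipid remodelling gene Pnpla3 stood at 1.18 on the control, 0.65 on the diabetic, 0.41 on the metformin array and -1.93 on the combination array. The elongase gene Elovl6 was at 3.41, 3.36, 2.28 and 1.68, and Acaca, the acetyl-CoA carboxylase of lipogenesis, was just short of 2-fold lower at -0.88. The transcription factor genes Srebf1 and Mlxipl (ChREBP) differed by 0.28 and 0.06. In glycolysis, 2 of 19 genes were lower by 2-fold or more and Pfkfb3 (1.01) was higher, with a median of 0.02. Pklr, the liver pyruvate kinase, stood at 1.49 on the control, 0.31 on the diabetic, 0.38 on the metformin array and -1.15 on the combination array. For Pnpla3, Elovl6 and Pklr the combination array was the lowest of the 4. Of 12 measured gluconeogenesis genes none was past 2-fold, and the hormone-regulated enzymes G6pc and Pck1 differed by -0.13 and 0.10. Ppp1r3g, a glycogen-targeting phosphatase subunit, went the other way from Pklr, at 3.01 on the control, 0.00 on the diabetic, -0.23 on the metformin array and 2.98 on the combination array, so that combination and control lay together.

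Of 18 measured lipid droplet proteins, 2 were 2-fold or more lower and 1 was higher by as much. Their median was -0.32, within the interquartile range of all genes, and lay between -0.52 (without centring) and -0.14 (genes above background on all 4 arrays) across the alternatives. G0s2, which inhibits the triglyceride lipase ATGL, stood at 0.86 on the control, 2.50 on the diabetic, 2.77 on the metformin array and -0.41 on the combination array. Cidec, which enlarges droplets, was at 2.26, 2.60, 2.65 and 0.67. Both genes were high on the diabetic and metformin arrays and lowest on the combination array. Plin4, a droplet coat protein, was at -0.70, -0.50, 1.99 and 1.82, higher on both treated arrays. In fatty acid oxidation and ketone body synthesis, 1 of 21 genes was past 2-fold, the coactivator Ppargc1a, at 1.35 on the control, 0.99 on the diabetic, 2.30 on the metformin array and 3.18 on the combination array, and the median was 0.02. Of 16 measured insulin and leptin receptor signalling genes 1 was past 2-fold, the leptin receptor Lepr, at -0.35, 1.66, -2.36 and 0.49. AMPK subunits and metformin transporters had no member past 2-fold among 9.

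**Figure D5:**
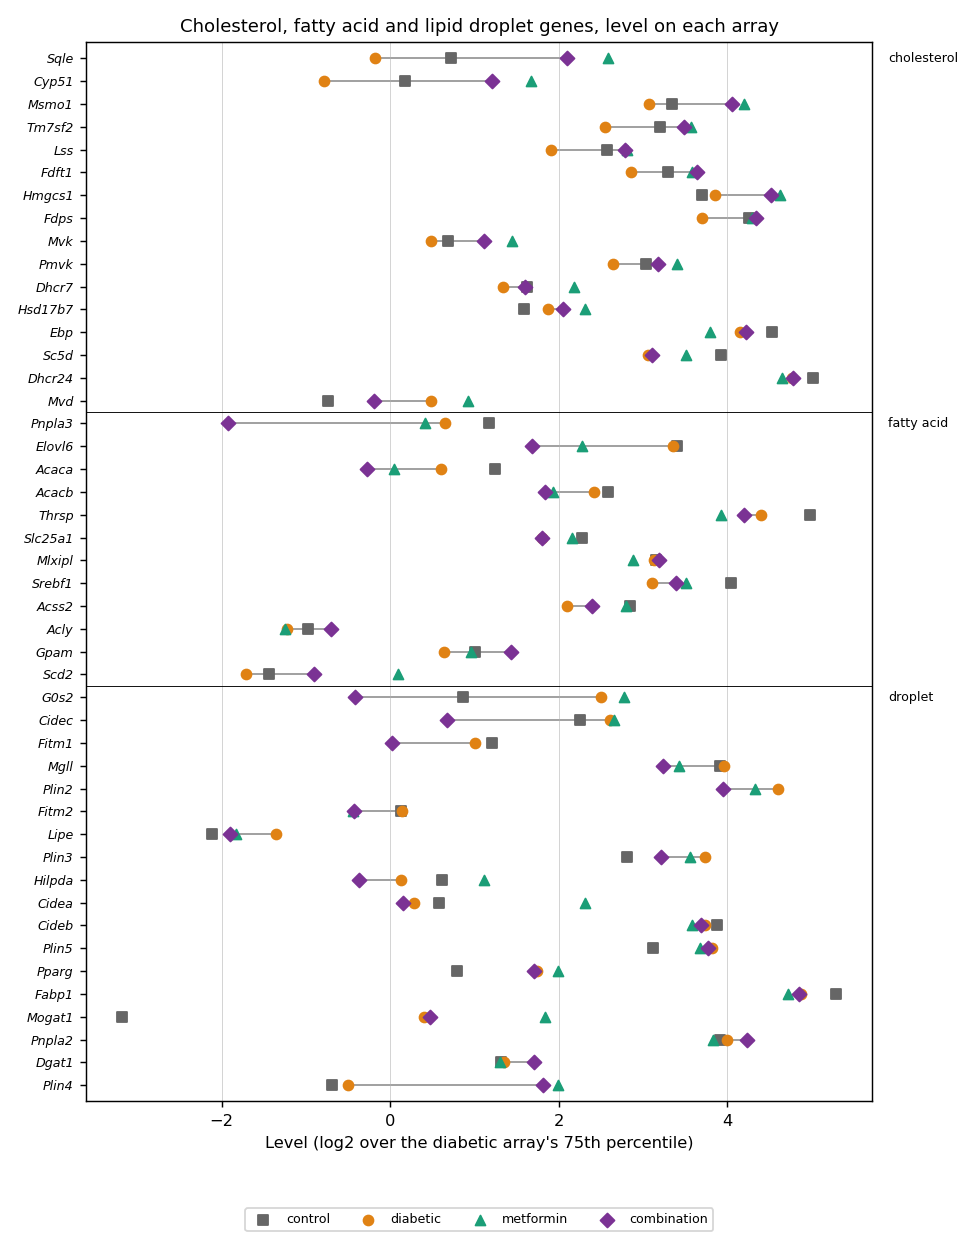
Level of measured genes of cholesterol synthesis (upper block), fatty acid synthesis (middle) and lipid droplets (lower) on each array (horizontal axis, log2 over the diabetic array's 75th percentile), with a line from diabetic to combination. Cholesterol enzymes lie to the right on the combination array (Sqle 2.27 higher), while Pnpla3 (-2.58), Elovl6 (-1.68), G0s2 (-2.92) and Cidec (-1.93) lie to the left.

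Detoxification genes were mixed outside the sulfotransferases. The sulfotransferase list, which also holds sulfate donor enzymes, had 5 of 12 measured genes at least 2-fold higher, none lower and a median of 0.41. That median was 0.21 without centring and 0.19 over the 7 above background on all 4 arrays. Sult2a2, Sult2a3, Sult2a4 and Sult2a5, the close copies described above, made up 4 of the 5. Papss2, which makes the sulfate donor and is not itself a sulfotransferase, was the other at 1.11. Of members seen on 1 array only, Sult3a1 and Sult3a2 were at least 22.3-fold and 5.66-fold higher and Sult4a1 at least 2.28-fold lower. Of 23 P450 genes of families 1 to 3, 4 were at least 2-fold higher and 1 lower, with a median of 0.25, or 0.05 without centring. Besides Cyp2d22 these were Cyp1a1, a target of the aryl hydrocarbon receptor, at -3.26 on the control, -2.77 on the diabetic and 0.31 on the combination array, and Cyp2c50 at 2.84, 2.03 and 4.34. Cyp3a44, a female-biased gene, differed by 1.03. The metformin array measured Cyp2c50 at 3.05 and had outlier spots for the other 3. Glutathione transferases had a median of 0.17 with Mgst2 alone past 2-fold.

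Some sex-biased liver genes differed by 2-fold or more, male-biased ones downward and female-biased ones upward. Of 12 measured male-biased genes 4 were at least 2-fold lower and none higher, with a median of -0.40, and of 16 female-biased genes 4 were at least 2-fold higher and none lower, with a median of 0.26, inside the interquartile range of all genes. Above 0 lay 5 of the 12 male-biased genes. Across the alternatives the male-biased median lay between -0.60 and -0.18 and the female-biased one between 0.06 (without centring) and 0.40. The lower male-biased genes were C6, a complement component (2.02 on the diabetic and 0.51 on the combination array), Cyp4a12a, a fatty acid omega-hydroxylase (3.81 and 2.51), Cyp2u1 (0.14 and -0.97) and the elongase Elovl3 (-0.91 and -1.99). On the control array they were at 3.36, 4.49, 0.80 and 2.21, above the diabetic array in each case. On the metformin array they were at 2.26, 4.21, -0.96 and 0.16, with only Cyp2u1 below the diabetic array. The higher female-biased genes included Sult2a2, Fmo2 (2.07 and 3.50, and 0.73 on the control array) and Cyp3a44. For the genes named here, then, the combination array lay further from the control array than the diabetic array did. Mice of every group were male. Of the growth hormone axis, Cish and Socs2, feedback inhibitors induced through STAT5, were at least 2-fold higher, 2 of 13 measured genes, and the list's median was 0.28, or 0.09 without centring and 0.14 over genes above background on all 4 arrays. Cish stood at 2.46 on the control, -1.20 on the diabetic, 0.28 on the metformin array and 0.87 on the combination array. Socs2 was at 3.12 on the control, 0.69 on the diabetic and 2.04 on the combination array, on 1 probe with an outlier spot on the metformin array. For Cish and Socs2 the combination level lay between those of the diabetic and control arrays. Another Socs2 probe, without a usable value on the combination array, differed by 0.18 between the metformin and diabetic arrays.

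Secreted factors and their signalling gave a few large single differences. The activin subunit genes Inhbe and Inhba were lower: Inhbe stood at 1.47 on the control, 2.10 on the diabetic, 2.69 on the metformin array and -0.39 on the combination array, and Inhba at 0.31, 1.41, 0.85 and -0.58. Hamp, which encodes the iron hormone hepcidin, was at -1.94, 2.47, 3.90 and 4.28, and some BMP-SMAD genes that act with it were also higher. Of 20 measured iron and BMP-SMAD genes, 4 were at least 2-fold higher and none lower, with a median of 0.18, or -0.02 without centring: Hamp (1.81), the BMP target genes Id1 (1.96) and Smad7 (1.63), and the ligand gene Bmp6 (1.13). Imprinted growth genes had 4 of 14 at least 2-fold higher, none lower and a median of 0.47, or 0.25 over genes above background on all 4 arrays. Beside Meg3 these were Rian, from the same imprinted cluster, at -1.09 on the control, -2.01 on the diabetic, 1.76 on the metformin array and 0.19 on the combination array, Dlk1 at -3.37 on the diabetic, 1.46 on the metformin array and -1.57 on the combination array, and Igf2 at -1.78 on the diabetic, 1.88 on the metformin array and -0.05 on the combination array, with Dlk1 and Igf2 below background on the control array. In these 4 the metformin array was the highest and the combination array came next. Of 18 clock genes 1 was at least 2-fold higher, Ciart (2.13), and 1 lower, Arntl (-1.22), with a median of 0.00.

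Interferon-stimulated genes were lower on the combination array. Of 22 measured, 4 were at least 2-fold lower and none higher, 18 lay below 0, and the median was -0.39, or -0.59 without centring. Isg15, a ubiquitin-like modifier, stood at 2.25 on the control, 3.0 on the diabetic, 3.87 on the metformin array and 1.94 on the combination array. Zbp1, a nucleic acid sensor, was at 0.55, 1.35, 2.42 and 0.02, and Oasl2 at -0.37, 0.05, 1.84 and -0.96. In these 3 genes the metformin array was the highest and the combination array the lowest. Over the list, combination minus control had a median of 0.03 in 23 genes, with 1 at least 2-fold higher and 1 lower. Irf9, a subunit of the interferon-activated transcription factor, differed by -1.09 and its partner Stat2 by -0.92. The interferon-stimulated response element, searched on both strands as GAAA and GAAA with 2 bases of any kind between them, was in 1079 of 27025 promoters (3.99%) and in 10 of 18 measured members with a promoter. The median difference was -0.29 for those 10 and -0.81 for the others, so members holding the element lay nearer 0. The Isg15 promoter (RefSeq GRCm38.p6, minus strand, chr4:156200861-156200910) is shown for a lower gene and that of Rsad2 (minus strand, chr12:26456543-26456592), an antiviral enzyme gene that differed by 0.05, for one near 0, with 1 match each in capitals. Matches in the Isg15 promoter overlapped one another.
Isg15: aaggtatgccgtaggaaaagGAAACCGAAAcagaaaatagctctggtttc
Rsad2: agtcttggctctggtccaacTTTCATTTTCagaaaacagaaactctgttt

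Immediate early genes, which many stimuli and the handling of tissue induce within minutes, were higher. Of 16 measured, 6 were at least 2-fold higher and none lower, with a median of 0.72. By any amount 13 were higher and 3 lower, the latter being Jun (-0.05), Fosl2 (-0.02) and Junb (-0.01). Another member, Egr3, was seen on the diabetic array only, at least 4.10-fold lower. Fos stood at -0.49 on the control, -1.98 on the diabetic, 0.32 on the metformin array and -0.75 on the combination array. Myc was at -0.03, -1.39, -0.48 and 0.05, and Klf4 at 1.16, -0.01, 1.71 and 1.45. For these 3 genes the diabetic array was the lowest. Btg1, the member furthest apart (2.05), was lowest on the control array instead. It stood at -3.24 on the control, -2.38 on the diabetic, -0.83 on the metformin array and -0.33 on the combination array. Genes of p53 response and senescence had 3 of 14 at least 2-fold lower, 1 higher and a median of -0.49. The cell cycle inhibitor Cdkn2b (-1.34), the proapoptotic Bbc3 (-1.04) and the p53 target Phlda3 (-1.01) were lower and the stress gene Sesn1 (1.18) higher. Against the control array, however, the combination array had a list median of 0.72 over 15 genes, with 5 at least 2-fold higher and 1 lower.

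Lists of other liver cells differed less evenly. Stellate cell and matrix genes had 3 of 18 at least 2-fold higher, none lower and a median of 0.53 (0.33 without centring), led by the pericyte receptor Pdgfrb at 0.42 on the control, -1.74 on the diabetic, 0.84 on the metformin array and -0.12 on the combination array. Summed over 16 members with a value on every array, the list's linear signal was 65.8 on the control, 38.3 on the diabetic, 80.6 on the metformin array and 51.8 on the combination array, in multiples of the diabetic 75th percentile. Lymphocyte markers had 3 of 12 at least 2-fold higher and a median of 0.62, with summed signals of 7.34, 3.99, 12.2 and 5.79, and the B cell markers Cd79a and Ms4a1 were below background on both arrays compared. For both lists the combination array lay between the diabetic and control arrays and below the metformin array. Bright probes weigh most in such sums. Kupffer cell and macrophage markers had a median of 0.01, with summed signals of 106 on the diabetic and 103 on the combination array. Itgam, the brightest of the summed members on these arrays, stood at 4.68 and 4.98 in log2. Of 14 measured members 7 lay above 0 and 7 below, among the latter Adgre1 (-0.60) and Clec4f (-0.57). The scavenger receptors Marco and Cd163 were lower by more. Marco stood at 2.14 on the control, 1.89 on the diabetic, 0.56 on the metformin array and -0.47 on the combination array, and Cd163 at 2.27, 1.62, -0.17 and -0.16. Folr2, another resident macrophage marker, differed by 1.01. Krt19 and Muc1, epithelial markers of bile ducts, differed by -2.18 and -1.74, while the cholangiocyte list had a median of 0.13, or -0.06 without centring. Neutrophil markers had 1 of 5 measured genes at least 2-fold lower, the antimicrobial peptide gene Camp (-2.42), none higher and a median of -0.64, or -1.14 over 10 genes with dim probes kept. Ltf and Elane, which encode granule proteins, were seen on the diabetic array only, at least 2.41-fold and 3.47-fold lower. The summed signal of the 5 was 26.8 on the diabetic and 28.0 on the combination array. Most of that sum came from Csf3r, at 4.49 and 4.65 in log2, and the other 4 measured members lay below 0. Sinusoidal endothelial markers had 1 of 14 at least 2-fold higher, the cadherin gene Cdh5 (1.09), and a median of 0.29, or 0.09 without centring. Erythroid genes had 1 of 7 at least 2-fold higher, the anion exchanger gene Slc4a1 (1.74), and a median of 0.35, or 0.15 without centring. The part of cell composition in the differences above was not tested.

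Exocrine pancreas genes had the lowest median of any list. Of 27 listed, 12 had a value on both arrays, 8 were at least 2-fold lower and none higher, with a median of -1.20, so they supplied 8 of the 890 lower genes. A further 10 were seen on the diabetic array only, each with a bound of at least 2-fold, and with dim probes kept the median was -2.09 over 25 genes. Among the 10, the trypsinogen genes Try5 and Prss2 were at least 23.3-fold and 23.2-fold lower. Summed over 11 members, the signal was 132 on the control, 27.0 on the diabetic, 41.6 on the metformin array and 19.5 on the combination array. The level was thus highest in the control array and lowest in the combination array. The labels name whole liver alone as the tissue, and the source of this signal was not tested.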

How the data were processed

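Per the labels' protocols, Cy5-labelled RNA was hybridized to 1-colour Agilent arrays. The deposited scanner files hold spot intensities; per the file headers they came from Feature Extraction 11.5.1.1, whereas version 10.7 of Agilent Feature Extraction stands in the submitters' processing notes. The processed intensity was already corrected for background in the deposited files. The authors' deposited value table holds log2 values of unknown normalization; they served as an alternative.

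From these files, log2 processed signals were scaled to each array's 75th percentile, outlier spots were dropped and spots of a probe averaged. A probe counted as measured where at least 50% of its kept spots were well above background on both arrays. Probes were named through RefSeq (GRCm38.p6), which gave 33767 probes (59.7%) a symbol, probes of a gene were averaged, and differences were centred on the median gene. Genes past 2-fold were counted, with no test. A gene seen on 1 array only has a bound, its brighter level against whichever is higher on the other array, the dim probe itself or the lowest signal well above background. The named genes are the 12 highest and 12 lowest differences among plain symbols whose brighter level is above the median of measured genes and whose probes share a sign, up to 4 of the largest bounds each way under the same conditions, and any member of a list. The members and lists were chosen with earlier results of these data known. Of measured genes, 11204 (79.4%) had a RefSeq promoter; motif counts over the heat shock and cholesterol lists are not given because under 80% of their measured members had one. The script was tested on simulated data. Background correction with normexp (limma 3.58.1, offset 50) used median spot signals, the mean not being used here. Python 3.11.15 with pandas 2.3.3 and R 4.3.3 were used. A few genes the rules name are not reported here.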

Additional observations from a re-analysis of the deposited data

How the results depend on the processing

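Settings of scale and filter were changed 1 at a time (9 alternatives). The number of genes at least 2-fold higher, 495, became 1247 with probes below background kept, of which 442 were among the 495, and 318 with 75th percentile scaling and no centring; it lay between 347 and 558 in the others. The number lower, 890, lay between 643 (normexp) and 1327 (no centring). All 24 named genes stayed at least 2-fold apart, in the same direction, in every alternative that measured them, and none of the 17 list medians outside the interquartile range changed sign. These genes and lists were chosen for their distance from 0, so that outcome was largely fixed by the choice and adds no support. The heat shock median lay between -1.08 and -0.64 and that of cholesterol synthesis between 0.44 and 0.74. Medians near 0 did change sign: without centring, where the median of all genes is -0.20, that of glycolysis was -0.18 and that of ribosomal proteins -0.04. No paired analysis was possible because each group is 1 array. The number of arrays limits all values.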

Other observations

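Ribosomal protein genes differed little but all in the same direction. The 28 measured cytosolic ribosomal genes all lay above 0, against 50% of all genes, with a median of 0.16 and none past 2-fold; without centring the median was -0.04, so the direction depends on the scale. Proteasome subunits (26 measured, median 0.08) and oxidative phosphorylation subunits (23 measured, median 0.05) had no member past 2-fold either, nor did genes of the urea cycle and amino acid breakdown (19 measured, median 0.23). Acute phase proteins lay below 0 in 14 of 15 cases, with a median of -0.15, and Saa3, a serum amyloid A gene, was the only one past 2-fold, at 4.13 on the diabetic, 3.96 on the metformin array and 2.50 on the combination array. Of 20 measured chemokine and cytokine genes 3 were at least 2-fold higher, among them Il1b and Il1a (1.28 each), and 3 lower, among them the macrophage chemokine genes Ccl3 (-2.66) and Ccl4 (-2.19). Ccl3 stood at -3.30 on the control, -1.28 on the diabetic, -0.70 on the metformin array and -3.93 on the combination array.

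DNA replication and mitosis genes went both ways, with 4 of 27 at least 2-fold higher, 3 lower and a median of 0.25. Beside Cenpm, the licensing factor Cdt1 (1.97), cyclin E gene Ccne1 (1.58) and helicase subunit Mcm5 (1.24) were higher, and another helicase subunit, Mcm2 (-2.01), the mitotic ubiquitin-conjugating enzyme Ube2c (-1.80) and the kinase Aurka (-1.23) were lower.

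Probes without a gene name were measured too. Of 8830 such probes, 375 (4.25%) were higher by 2-fold or more and 480 (5.44%) lower, with a median of 0.10.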
